A study of Mus musculus with 18 samples.

Results

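Transcripts of 50 genes of DNA replication and cell division were followed in mouse dura mater, the outer membrane around the brain. They were listed by name as 24 replication genes and 26 mitosis genes. A gene counted as measured where a probe set of the array carried its symbol and no other, and where a gene had several such probe sets the one with the highest mean over all arrays stood for it. By this rule all 24 replication genes and 25 of the 26 mitosis genes were measured, 49 genes of the 19937 tested on the array, and Ccnb1, the cyclin B1 gene, was not measured. The arrays came from 18 male mice aged 17 to 21 weeks, with 1 dura on each array. They fell into 6 groups of 3: wild-type WBB6F1-Kit+/+ mice, mast cell-deficient WBB6F1-KitW/W-v mice, and engrafted mice, which were KitW/W-v mice given mast cells by vein 8 to 10 weeks earlier, each either naive or 2 days after a stroke. The stroke was a 30 minute closure of the middle cerebral artery with a filament. The controls were naive mice of like age. Sham-operated mice were not analysed here, and whatever the surgery itself does is part of every stroke difference below. Both Kit alleles of the deficient mice are mutant in all their cells and not in mast cells alone, and the engrafted mice keep that genotype in every cell that was not transferred. The comparisons address what stroke does to transcripts of the dura and whether mast cells alter it.

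A dividing cell first copies its DNA and then separates the copies. Origins of replication are loaded with the ring-shaped Mcm helicase, which Cdc45 and the Gins proteins switch on at the start of S phase, while enzymes of nucleotide supply make the DNA building blocks. In mitosis, Cdk1 with its cyclins, the Aurora kinases and Plk1 drive the building of the spindle, a checkpoint delays separation until each chromosome is attached, and kinesins and actin-binding proteins complete the division. Replication genes are known as targets of the E2F transcription factors. Many mitosis genes are known to be held off in resting cells through a short promoter element called the CHR, together with CCAAT boxes bound by NF-Y. In adult dura most cells are at rest, and fibroblasts, vessel cells and resident or incoming leukocytes can enter the cycle after injury.

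The promoters of both classes carried these elements in different shares. Of the 50 genes, 42 matched an entry of the RefSeq promoter table (GRCm38.p6), and Aurkb, Ccna2, Ccne2, Gins1, Gins2, Kif20a, Mcm4 and Tpx2 are named only. The 250 bases before each start were searched on both strands for an E2F motif in 4 spellings (TTCCCGC or TTGGCGC or TTCGCGC or TTGCCGC), the CHR in 2 spellings (TTTGAA or TTCGAA) and the CCAAT box. A match describes these letters only and was not tested as a binding site. Below are, for each class, the 3 genes with the smallest p after stroke in wild type whose window held the motif of their class. Each is written 5′ to 3′ on the strand of its gene, with capitals marking the matches, and bases that the annotation places inside the gene were left off. Ect2 was passed over because its CHR lay in bases annotated as gene. The shares given below are over the full windows, such bases included, and so count Ect2. The 3 replication promoters are:
Chaf1b, chr16:93883651-93883899, plus strand: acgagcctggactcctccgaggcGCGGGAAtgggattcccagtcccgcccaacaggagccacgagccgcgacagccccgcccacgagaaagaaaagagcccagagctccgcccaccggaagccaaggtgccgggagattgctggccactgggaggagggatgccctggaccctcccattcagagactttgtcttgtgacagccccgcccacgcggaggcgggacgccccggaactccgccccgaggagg
Mcm5, chr8:75109259-75109467, plus strand: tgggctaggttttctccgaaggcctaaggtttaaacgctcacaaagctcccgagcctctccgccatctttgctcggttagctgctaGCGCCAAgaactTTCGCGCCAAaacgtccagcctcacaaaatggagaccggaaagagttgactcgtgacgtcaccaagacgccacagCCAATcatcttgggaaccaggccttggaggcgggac
Uhrf1, chr17:56303087-56303336, plus strand: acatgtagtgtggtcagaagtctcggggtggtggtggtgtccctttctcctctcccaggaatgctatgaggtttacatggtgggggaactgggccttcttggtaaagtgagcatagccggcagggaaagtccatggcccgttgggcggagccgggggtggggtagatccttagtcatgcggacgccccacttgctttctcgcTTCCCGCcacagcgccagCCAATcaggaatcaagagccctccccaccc
The 3 mitosis promoters are:
Cdk1, chr10:69352913-69353162, minus strand: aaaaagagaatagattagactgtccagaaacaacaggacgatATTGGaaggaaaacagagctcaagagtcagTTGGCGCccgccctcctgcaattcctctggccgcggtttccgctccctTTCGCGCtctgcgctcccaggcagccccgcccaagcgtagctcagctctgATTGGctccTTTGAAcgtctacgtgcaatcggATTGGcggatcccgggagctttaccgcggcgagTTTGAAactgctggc
Cdc20, chr4:118437344-118437593, minus strand: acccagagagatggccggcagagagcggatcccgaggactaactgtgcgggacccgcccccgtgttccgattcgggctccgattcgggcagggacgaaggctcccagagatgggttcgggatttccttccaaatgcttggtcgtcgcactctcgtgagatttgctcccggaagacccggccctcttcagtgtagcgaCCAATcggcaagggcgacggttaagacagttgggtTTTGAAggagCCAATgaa
Top2a, chr11:99024200-99024439, minus strand: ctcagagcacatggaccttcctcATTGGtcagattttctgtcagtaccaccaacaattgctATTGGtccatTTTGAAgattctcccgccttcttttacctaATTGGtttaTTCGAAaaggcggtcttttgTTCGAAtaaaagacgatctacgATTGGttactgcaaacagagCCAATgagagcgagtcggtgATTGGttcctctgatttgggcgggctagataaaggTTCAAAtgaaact

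In the Mcm5 window 3 E2F matches began 164, 152 and 149 bases before the start, of which those at 152 and 149 overlap on opposite strands. The Cdk1 window held both classes of motif, with E2F matches beginning 178 and 130 bases before the start, CHR matches at 71 and 15, and CCAAT matches at 208, 80 and 48. In the Cdc20 window a single CHR match at 18 stood between CCAAT matches at 53 and 8. The Top2a window held 4 CHR and 6 CCAAT matches and no E2F match. Over the matched genes, the E2F motif was in 10 of 20 replication promoters (50%) and 4 of 22 mitosis promoters (18.2%), against 12.3% of the 15613 tested genes with a promoter and 9.01% of all 27025 genes in the table. The CHR was in 5 of 20 replication promoters (25%) and 9 of 22 mitosis promoters (40.9%), against 17.3% and 19.6%. CCAAT was in 12 of 20 (60%) and 18 of 22 (81.8%), against 38.8% and 37.5%. Each of the 9 mitosis promoters with a CHR also held a CCAAT box, a pairing present in 40.9% of mitosis promoters, 20% of replication promoters and 7.3% of those of tested genes. The further replication and mitosis genes described near the end had like shares, with the E2F motif in 42.4% and 18.4% and the CHR in 18.2% and 40.8%. With a window of 150 bases the E2F motif was in 8 replication and 4 mitosis promoters, and the CHR in 3 and 7.

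The arrays held log2 values with medians of 7.77 to 7.91, and within groups r between arrays over all probe sets was 0.985 to 0.995. Precision is limited by how many arrays there are. Over all tested probe sets the standard error (SE) had a median of 0.0959 log2 units where 3 arrays were set against 3. In the interaction tests this median was 0.136. The SE was larger for many of the genes followed here and is given with their differences. Genes known from dural fibroblasts were high on every array, with Foxc1 at 10.35 to 11.04 and Aldh1a2 at 10.28 to 11.65. Cpa3, a mast cell protease, lay between 5.66 and 5.82 on the 6 deficient arrays and between 8.39 and 10.90 on the others. On 5 arrays (deficient naive 1 and 3, engrafted naive 3, wild-type stroke 2 and deficient stroke 2) Ttr, a gene of the choroid plexus, which makes cerebrospinal fluid, lay between 9.03 and 10.17, against at least 13.03 on the other 13. All tests below are limma tests over 21640 probe sets with Benjamini-Hochberg adjustment, and a gene is said to have risen or fallen where its adjusted p was under 0.05.

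In naive dura no difference between the 3 categories passed the test in these genes. In each of the 3 comparisons 0 of the 49 genes passed in limma, where 0.0185% of all probe sets passed for deficient against wild type, 0% for engrafted against wild type and 0.0185% for engrafted against deficient. At an unadjusted p under 0.05 there were 0, 3 and 2 genes, beside 6.82%, 19.1% and 4.7% of all probe sets. The median log2 difference between deficient and wild-type naive dura was -0.06 over the replication genes and -0.09 over the mitosis genes, and the medians for engrafted against wild type were 0.08 and 0.02. Engrafted naive array 3 stood apart from the other 2 arrays of its group: it was the highest of the 3 for 24 of 25 mitosis genes and 16 of 24 replication genes. Mki67, which codes for the proliferation antigen Ki-67, read 8.47, 8.24 and 9.58 on the engrafted naive arrays, against 8.18 to 8.66 in wild-type and 8.08 to 8.53 in deficient naive dura. The same array had the lowest Ttr of its group and the highest levels of marrow-type markers, given below.

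**Figure D1:**
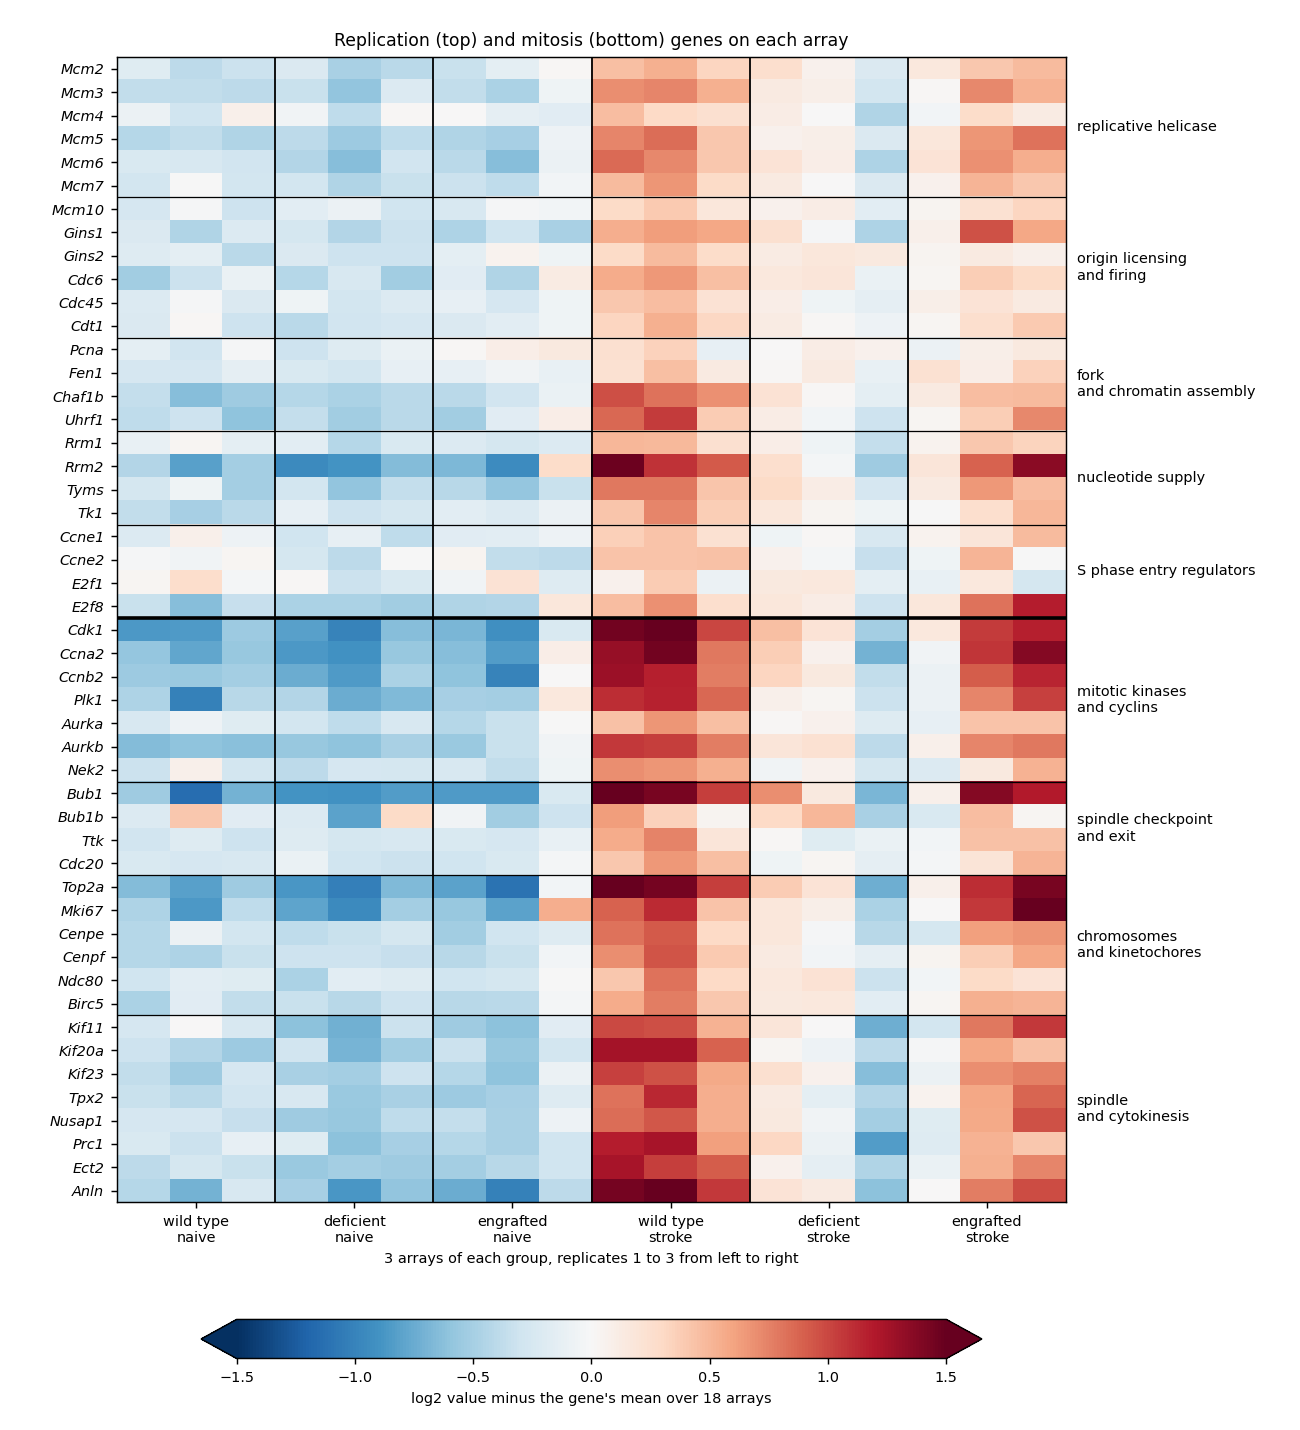
Log2 value of each gene on each array minus the gene's mean over the 18 arrays (colour), with genes in rows by role and the 3 arrays of each of the 6 groups in columns. Wild-type stroke arrays are above the mean for nearly all genes, engrafted stroke arrays 2 and 3 come next, and deficient stroke array 3 and engrafted stroke array 1 are the palest or bluest of their groups.

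After stroke, wild-type dura held more transcript of nearly all these genes. Of the 24 replication genes 20 rose and 0 fell, and of the 25 mitosis genes 24 rose and 0 fell, where 6.24% of all tested probe sets rose. The median log2 difference was 0.70 over the replication genes and 1.23 over the mitosis genes, against 0.01 over all probe sets. For 46 of the 49 genes (22 replication, 24 mitosis) every stroke array lay above every naive array, as it did for 15.8% of all probe sets. In whole dura, more dividing cells and more RNA per cell cannot be told apart. The 5 genes that did not pass were Mcm4, Pcna, Ccne2 and E2f1 among the replication genes and Bub1b among the mitosis genes.

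Of the 6 subunits of the Mcm2-7 helicase, which unwinds DNA at the fork, 5 rose in wild type. Mcm5 (probe set 10572906) read 7.89, 7.95 and 7.87 in naive and 9.05, 9.16 and 8.73 in stroke dura, a rise of 1.08 ± 0.15 (SE; adjusted p = 0.000381). Mcm3 read 7.04, 7.03 and 7.01 against 8.10, 8.14 and 7.94, a rise of 1.03 ± 0.16 (adjusted p = 0.000771). Mcm6, Mcm2 and Mcm7 rose by 0.91 ± 0.18, 0.74 ± 0.12 and 0.66 ± 0.13. Their stroke arrays lay clear of the naive arrays. Mcm4 read 9.34, 9.13 and 9.50 in naive and 9.89, 9.73 and 9.67 in stroke dura, which did not overlap either, but its difference of 0.44 ± 0.14 missed the threshold (adjusted p = 0.0597).

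All 6 genes of origin licensing and firing rose in wild type, by 0.48 to 0.87. Gins1 and Gins2 code for subunits of the GINS complex, which joins the helicase when it is switched on. Gins1 read 6.32, 6.08 and 6.33 in naive and 7.08, 7.16 and 7.11 in stroke dura (0.87 ± 0.18, adjusted p = 0.00612). Gins2 read 8.12, 8.16 and 7.91 against 8.60, 8.79 and 8.59 (0.60 ± 0.08, adjusted p = 0.000139). Neither gene's groups overlapped. Gins1 was dim, with naive group means of 6.11 to 6.24 beside lower quartiles of the arrays of 6.09 to 6.24. Cdc6 and Cdt1, which load the helicase onto origins, rose by 0.86 ± 0.14 and 0.55 ± 0.10, and Cdc45 and Mcm10, which act as it starts to move, by 0.51 ± 0.09 and 0.48 ± 0.10.

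Of the 4 genes of the fork and of chromatin assembly behind it, 3 rose. Chaf1b (probe set 10437040), a subunit of the factor that places new histones on copied DNA, had the smallest p of the 49 genes. It read 7.16, 6.88 and 6.99 in naive and 8.49, 8.33 and 8.21 in stroke dura, a rise of 1.33 ± 0.12 or 2.51-fold (adjusted p = 6.21e-06). Uhrf1, which guides the copying of DNA methylation, read 6.52, 6.60 and 6.30 against 7.77, 7.96 and 7.29 (1.20 ± 0.19, adjusted p = 0.00104). In both genes the lowest stroke array was well above the highest naive array. Fen1, the nuclease that trims lagging-strand fragments, rose by 0.49 ± 0.09. Pcna, the sliding clamp of the polymerases, read 11.80, 11.66 and 11.93 in naive and 12.19, 12.29 and 11.83 in stroke dura. These groups overlapped, and the difference of 0.30 ± 0.11 did not pass (adjusted p = 0.0825). A second probe set for Pcna gave 0.00 ± 0.09 (adjusted p = 0.983), so the sets differ on the size for this gene.

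All 4 genes of nucleotide supply rose. Rrm2, the small subunit of ribonucleotide reductase that is made in S phase, read 7.61, 7.24 and 7.54 in naive and 9.52, 9.14 and 8.97 in stroke dura, a rise of 1.75 ± 0.31 or 3.35-fold (adjusted p = 0.00187). It was the largest difference among the replication genes. Its partner Rrm1, the large subunit, rose by 0.49 ± 0.12 (adjusted p = 0.0163). Tyms, thymidylate synthase, and Tk1, thymidine kinase, rose by 0.94 ± 0.16 and 0.93 ± 0.12, and a second probe set for Tk1 gave 1.13 ± 0.15. Among the 4 regulators of entry into S phase, E2f8, a repressor of the E2F family that is itself made in S phase, rose by 0.91 ± 0.22 (adjusted p = 0.0153) and Ccne1, cyclin E1, by 0.41 ± 0.11 (adjusted p = 0.0239). Ccne2, cyclin E2, gave 0.45 ± 0.15 and did not pass (adjusted p = 0.073). E2f1, an activator of the family, read 9.19, 9.42 and 9.13 in naive and 9.22, 9.54 and 9.07 in stroke dura. Its groups overlapped throughout and its difference was 0.03 ± 0.15 (adjusted p = 0.929, 95% interval -0.28 to 0.34).

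All 7 measured kinases and cyclins of mitosis rose in wild type. Cdk1 (probe set 10369815), the kinase that starts mitosis, read 7.72, 7.73 and 8.04 in naive and 10.03, 10.15 and 9.59 in stroke dura, a rise of 2.10 ± 0.27 or 4.28-fold (adjusted p = 0.000163). Its cyclins Ccna2 and Ccnb2 rose by 1.83 ± 0.34 (3.56-fold) and 1.61 ± 0.29 (3.05-fold). Plk1, a kinase of spindle building and mitotic entry, read 7.53, 6.99 and 7.58 against 9.11, 9.15 and 8.86 (1.68 ± 0.25, adjusted p = 0.000487). Aurkb, the kinase that corrects faulty attachment of chromosomes, read 7.67, 7.71 and 7.69 against 9.38, 9.36 and 9.08 (1.58 ± 0.19, adjusted p = 7.01e-05). The stroke arrays of these genes lay more than 1 log2 unit above their naive arrays. Nek2, a kinase that splits the centrosomes, and Aurka, a kinase of the spindle poles, rose less, by 0.80 ± 0.15 and 0.69 ± 0.14.

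The checkpoint and the chromosomes themselves were covered by 10 genes, of which 9 rose. Bub1, a checkpoint kinase, had the largest difference of all 49 genes. It read 6.40, 5.80 and 6.23 in naive and 8.65, 8.36 and 7.97 in stroke dura, a rise of 2.18 ± 0.34 or 4.52-fold (adjusted p = 0.00079). Its mean was below the lower quartile of the arrays (6.09 to 6.24) in deficient naive dura. Ttk, another checkpoint kinase, was dimmer still, with a mean below the lower quartile in 4 groups, and rose by 0.76 ± 0.13. Cdc20, which releases the checkpoint, read 7.22, 7.20 and 7.21 against 7.86, 8.11 and 7.90 (0.74 ± 0.11, adjusted p = 0.000673). Bub1b, which codes for the checkpoint protein BubR1, read 8.35, 8.96 and 8.39 against 9.18, 8.90 and 8.60, with overlapping groups and a difference of 0.33 ± 0.29 (adjusted p = 0.516).

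Top2a, the enzyme that untangles chromosomes, read 7.43, 7.26 and 7.54 in naive and 9.68, 9.51 and 9.11 in stroke dura, a rise of 2.02 ± 0.34 or 4.06-fold (adjusted p = 0.00129). A second probe set for Top2a was dim, with a mean of 4.09, and gave -0.08 ± 0.09. Mki67 read 8.58, 8.18 and 8.66 against 9.92, 10.16 and 9.47 (1.38 ± 0.36, adjusted p = 0.0228). Both genes were higher on every stroke array. The kinetochore genes Cenpf, Cenpe and Ndc80 rose by 1.08 ± 0.14, 0.94 ± 0.22 and 0.73 ± 0.15, and Birc5, which codes for survivin, a partner of Aurora B, by 0.91 ± 0.14.

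All 8 genes of the spindle and of cytokinesis rose, by 0.99 to 1.79. Kif20a (probe set 10454709), a kinesin of the midzone where the cell will divide, read 6.97, 6.84 and 6.74 in naive and 8.53, 8.53 and 8.17 in stroke dura, a rise of 1.56 ± 0.16 or 2.95-fold (adjusted p = 2.3e-05). Anln, which codes for the actin-binding protein anillin of the contractile ring, read 7.08, 6.80 and 7.26 against 8.94, 9.0 and 8.57 (1.79 ± 0.25, adjusted p = 0.000332). Ect2, the activator of RhoA at the division plane, read 7.25, 7.37 and 7.30 against 8.87, 8.67 and 8.55 (1.39 ± 0.17, adjusted p = 8.22e-05). In these 3 genes the stroke arrays stood over 1 log2 unit above the naive arrays. The midzone genes Kif23 and Prc1 rose by 1.24 ± 0.23 and 1.23 ± 0.24, and the spindle genes Tpx2, Nusap1 and Kif11 by 1.17 ± 0.19, 1.06 ± 0.22 and 0.99 ± 0.29.

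The wild-type calls held best among the mitosis genes. Leaving out each wild-type array in turn kept 17 of the 20 replication calls and 21 of the 24 mitosis calls in all 6 fits. With choroid plexus and neuron marker scores as covariates 13 replication and 19 mitosis genes passed (medians 0.58 and 1.09), and without the 5 arrays low in Ttr 15 and 19 passed (medians 0.63 and 1.12). The neuron score is the mean of 9 markers after each marker's mean over the 18 arrays was subtracted. It was -0.08, 0.08 and 0.41 on the wild-type naive arrays and -0.56, -0.49 and -0.86 on the wild-type stroke arrays. The median difference of these markers was -0.77, and their part in the result was not tested otherwise.

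**Figure D2:**
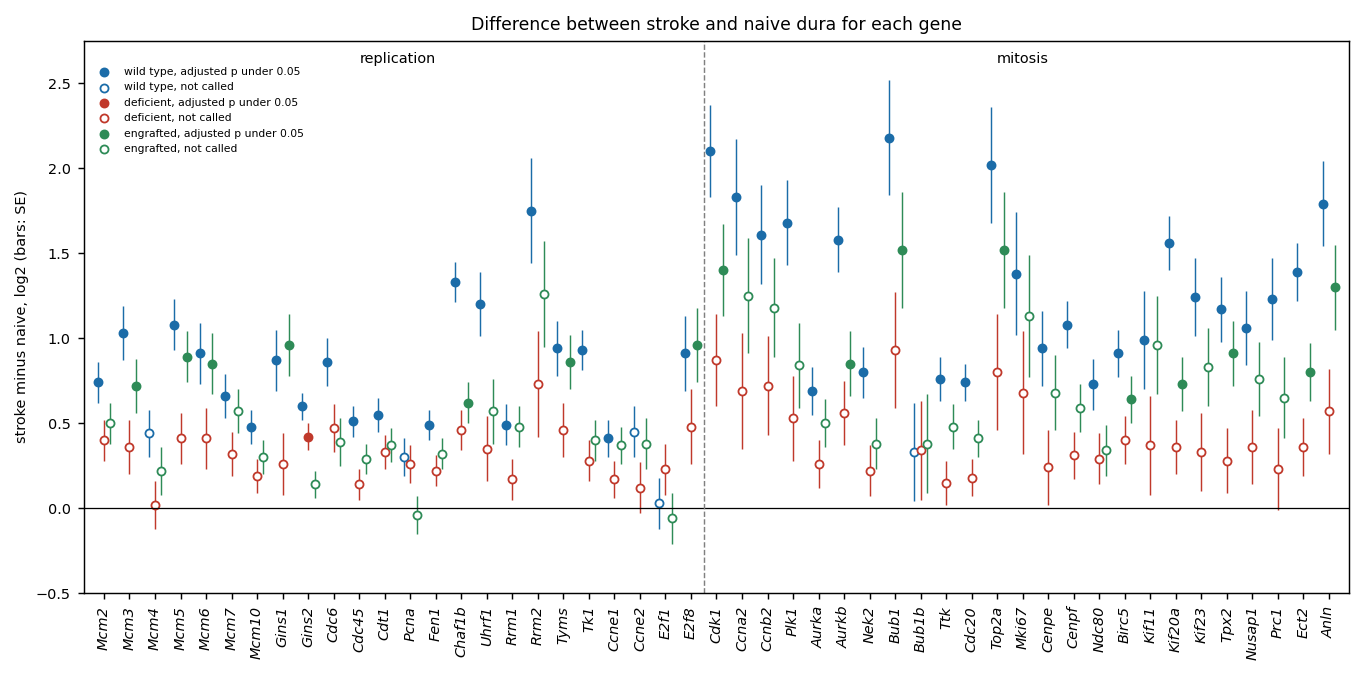
Stroke minus naive log2 difference of each gene (points) with its SE (bars) in wild type (blue), deficient (red) and engrafted (green) dura, with replication genes left of the dashed line and mitosis genes right of it. Filled points passed the threshold: 44 genes in wild type, 1 in deficient (Gins2) and 16 in engrafted dura.

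In mast cell-deficient dura the same genes read higher after stroke, but by less, and 1 of 49 passed. That gene was Gins2, where 0.125% of all probe sets rose. It read 8.09, 8.00 and 8.00 in naive and 8.43, 8.48 and 8.46 in stroke dura, a rise of 0.42 ± 0.08 (adjusted p = 0.0285). The arrays of each group lay within 0.1 of each other, and the call was lost when any 1 of the 6 deficient arrays was left out, with differences of 0.36 to 0.45 over all alternatives. Of the mitosis genes 0 passed in limma, 11 had an unadjusted p under 0.05 (13.5% of all probe sets), and 7 passed in a fit that weights each array by its quality. All 49 differences were above 0. Their medians were 0.33 over the replication genes and 0.36 over the mitosis genes, against 0.04 over all probe sets. With the granulocyte precursor score as a covariate they were 0.16 and 0.09. That score was itself higher in deficient stroke (-0.06, -0.22 and 0.12) than in deficient naive dura (-0.87, -0.74 and -0.78). This fit therefore cannot separate the score from stroke, and what links them was not tested.

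The spread of the deficient stroke arrays was wide in these genes. Cdk1 read 7.77, 7.58 and 7.95 in naive and 9.04, 8.79 and 8.07 in stroke dura (0.87 ± 0.27, adjusted p = 0.228). Top2a read 7.21, 7.05 and 7.42 against 8.46, 8.28 and 7.34 (0.80 ± 0.34, adjusted p = 0.332), and Bub1 read 6.04, 6.03 and 6.10 against 7.63, 7.08 and 6.25 (0.93 ± 0.34, adjusted p = 0.281). In all 3 genes stroke arrays 1 and 2 stood above the naive arrays and stroke array 3 stood near them. Over the 49 genes, deficient stroke array 1 was above every naive deficient array for 49, array 2 for 46 and array 3 for 24, and array 3 was the lowest of the 3 for 46.

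In engrafted dura 7 replication and 9 mitosis genes rose and 0 fell, where 0.878% of all probe sets rose. The 7 were Mcm3, Mcm5, Mcm6, Gins1, Tyms, Chaf1b and E2f8, and the 9 were Cdk1, Aurkb, Bub1, Top2a, Kif20a, Tpx2, Birc5, Ect2 and Anln. All 16 had also risen in wild type. In 28 of the 49 genes every stroke array was above every naive array, beside 8.89% of all probe sets. Median differences were 0.44 over the replication genes and 0.80 over the mitosis genes, against -0.01 over all probe sets. Cdk1 read 7.90, 7.66 and 8.35 in naive and 8.74, 9.63 and 9.75 in stroke dura (1.40 ± 0.27, adjusted p = 0.0205). Mcm5 read 7.87, 7.82 and 8.24 against 8.49, 8.98 and 9.14 (0.89 ± 0.15, adjusted p = 0.0107). Top2a read 7.27, 6.97 and 8.04 against 8.16, 9.18 and 9.50 (1.52 ± 0.34, adjusted p = 0.0424). In these genes naive array 3 was the highest of its group and stroke array 1 the lowest, and the groups still did not overlap. Mki67 did overlap, with stroke values of 9.04, 10.10 and 10.55 beside the naive array at 9.58, and its difference of 1.13 ± 0.36 did not pass (adjusted p = 0.179).

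The engrafted counts changed when an array was left out, and the medians much less. Without engrafted naive array 1, naive array 2, stroke array 2 or stroke array 3, 0 genes of either class passed in limma, with medians of 0.40 to 0.42 and 0.63 to 0.73. Without naive array 3 the counts were 8 and 12 (medians 0.51 and 0.87), and without stroke array 1 they were 14 and 21 (medians 0.56 and 1.07). With the granulocyte precursor score described below as a covariate, 0 and 0 passed and the medians were 0.21 and 0.24. Stroke array 1 was the lowest of its group for 47 of the 49 genes. Averaged over the 3 categories, 21 replication genes (median 0.53) and 24 mitosis genes (median 0.79) rose, where 8.05% of all probe sets rose, and 20 and 24 of these calls held in each fit that left out 1 array. With the granulocyte precursor score as a covariate these counts were 1 and 3, and the medians 0.30 and 0.39. The score was itself higher on average after stroke in each category, so the fits with it cannot separate it from stroke.

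**Figure D3:**
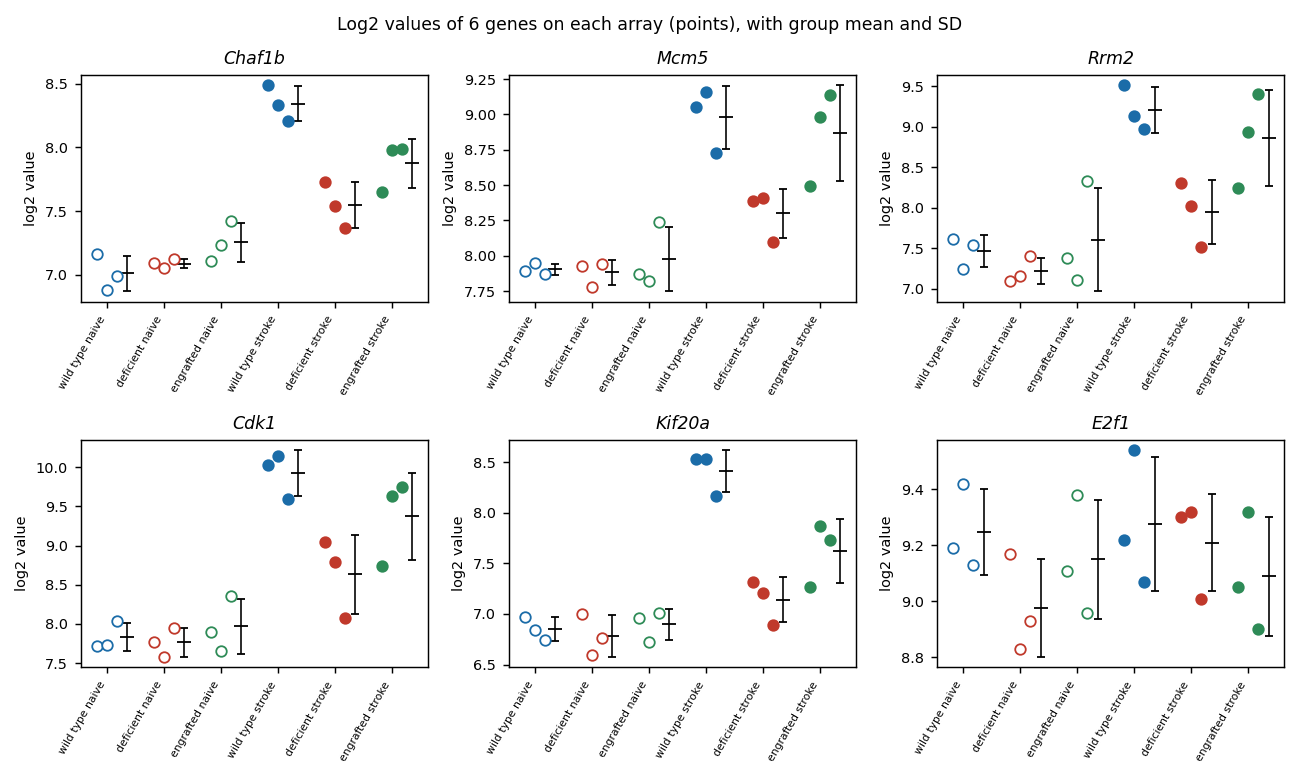
Log2 values of 6 genes on each array (open points naive, filled points stroke; blue wild type, red deficient, green engrafted), with the group mean and SD (n = 3) at the right of each group. Chaf1b, Mcm5, Rrm2, Cdk1 and Kif20a are highest in wild-type stroke dura or share the top with engrafted stroke dura, and E2f1 overlaps in all groups.

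Across the categories the stroke difference was largest in wild type, then engrafted, then deficient dura for 42 of the 49 genes (18 replication, 24 mitosis), an order found in 11.4% of all probe sets. Each category's difference comes from its own 6 arrays. Bub1b was the mitosis gene outside this order, with 0.33, 0.38 and 0.34 in wild-type, engrafted and deficient dura, which lie within 1 SE (0.29) of each other. Gins2 was 1 of 3 replication genes with the order wild type, deficient, engrafted, at 0.60, 0.42 and 0.14.

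The difference between the stroke responses was tested as an interaction. For deficient minus wild type 1 replication and 1 mitosis gene passed, both with the smaller response in deficient dura, where 0.342% of all probe sets passed in that direction. Chaf1b rose by 1.33 ± 0.12 in wild type and differed by 0.46 ± 0.12 in deficient dura (7.09, 7.05 and 7.12 in naive, 7.73, 7.54 and 7.37 after stroke), an interaction of -0.87 ± 0.16 (adjusted p = 0.0327). Kif20a rose by 1.56 ± 0.16 in wild type and differed by 0.36 ± 0.16 in deficient dura (7.0, 6.59 and 6.76 in naive, 7.32, 7.21 and 6.89 after stroke), an interaction of -1.20 ± 0.22 (adjusted p = 0.0298). The deficient groups of Kif20a overlapped and those of Chaf1b did not. Both calls were lost in 8 of the 12 fits without 1 array, with adjusted p up to 0.104 for Chaf1b and 0.109 for Kif20a. The interaction stayed between -0.96 and -0.78 for Chaf1b and between -1.33 and -0.98 for Kif20a over all alternatives. Leaving out the 5 arrays low in Ttr kept only deficient naive array 2 of its group, so no call is given for that fit. None of the remaining genes passed. With these included, 9 replication and 21 mitosis genes had an unadjusted p under 0.05 (7.35% of all probe sets). The medians of the interaction were -0.38 over the replication genes and -0.88 over the mitosis genes, against 0.03 over all probe sets. For engrafted minus wild type the medians were -0.18 and -0.42, and for engrafted minus deficient 0.20 and 0.42. In both of these comparisons 0 genes passed in limma, 11 and 4 had an unadjusted p under 0.05 (13.2% and 9.69% of all probe sets), and 0.106% and 0.00462% of all probe sets passed. The engrafted response was thus not shown to differ from that of either other category in any of the 49 genes.

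Compared directly after stroke, 10 replication and 17 mitosis genes were lower in deficient than in wild-type dura and 0 were higher, where 1.97% of all probe sets were lower. The medians were -0.48 and -0.96, against 0.02 over all probe sets. For 45 of the 49 genes all 3 deficient arrays lay below all 3 wild-type arrays, against 9.98% of all probe sets. Kif20a read 7.32, 7.21 and 6.89 against 8.53, 8.53 and 8.17, lower by 1.27 ± 0.16 (adjusted p = 0.000416). Ect2 read 7.70, 7.50 and 7.19 against 8.87, 8.67 and 8.55 (-1.23 ± 0.17, adjusted p = 0.000807). Anln had the largest difference, with 7.71, 7.64 and 6.89 against 8.94, 9.0 and 8.57 (-1.42 ± 0.25, adjusted p = 0.0064). Chaf1b led the replication genes by p (-0.80 ± 0.12, adjusted p = 0.0016), and Rrm2 had their largest difference, with 8.31, 8.02 and 7.52 against 9.52, 9.14 and 8.97 (-1.26 ± 0.31, adjusted p = 0.0391). No array of either group crossed into the other in these genes.

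These counts changed with single stroke arrays. They were 1 and 3 without deficient stroke array 3, 1 and 9 without deficient stroke array 2, 1 and 5 without wild-type stroke array 1 and 1 and 4 without wild-type stroke array 2. The medians in the 6 fits without 1 array lay between -0.57 and -0.38 for replication and between -1.12 and -0.72 for mitosis genes. Without the 5 arrays low in Ttr, which include array 2 of both stroke groups, the counts were 0 and 1. The medians were then -0.46 and -0.99, close to those with all arrays. All 49 differences were below 0 on the full set of arrays. In engrafted against wild-type stroke dura 1 gene passed, Kif20a (-0.78 ± 0.16, adjusted p = 0.044), where 0.314% of all probe sets were lower, with medians of -0.18 and -0.39. It was lost in 5 of the 6 fits without 1 array. In engrafted against deficient stroke dura 0 genes passed in limma and 33 had an unadjusted p under 0.05 (6.28% of all probe sets), where 0.0277% of all probe sets passed, with medians of 0.32 and 0.56.

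The replication and the mitosis genes varied together over the arrays, and on average the mitosis genes differed more after stroke in each category. The level of a class on an array was taken as the mean of its genes after each gene's mean over the 18 arrays was subtracted. For replication genes it was -0.25, -0.24 and -0.27 on the wild-type naive arrays and 0.54, 0.61 and 0.34 on the wild-type stroke arrays. For mitosis genes it was -0.41, -0.42 and -0.36, and 0.97, 1.03 and 0.62. The stroke difference was 0.75 and 1.27 in wild type, 0.32 and 0.44 in deficient and 0.51 and 0.84 in engrafted dura, so that the mitosis difference was 1.70, 1.38 and 1.64 times the replication difference. The mitosis level minus the replication level was 0.44, 0.42 and 0.28 on the wild-type stroke arrays, 0.06, 0.01 and -0.22 on the deficient ones and -0.13, 0.23 and 0.35 on the engrafted ones. On the 9 naive arrays it lay between -0.29 and -0.02. All 3 wild-type stroke arrays and engrafted stroke arrays 2 and 3 were above the naive range by more than 0.2, and deficient stroke array 3 and engrafted stroke array 1 lay within it. Replication and mitosis levels were -0.23 and -0.44 on deficient stroke array 3, and 0.07 and -0.06 on engrafted stroke array 1. The genes were listed with earlier results of these data known, so no test is given for these levels.

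**Figure D4:**
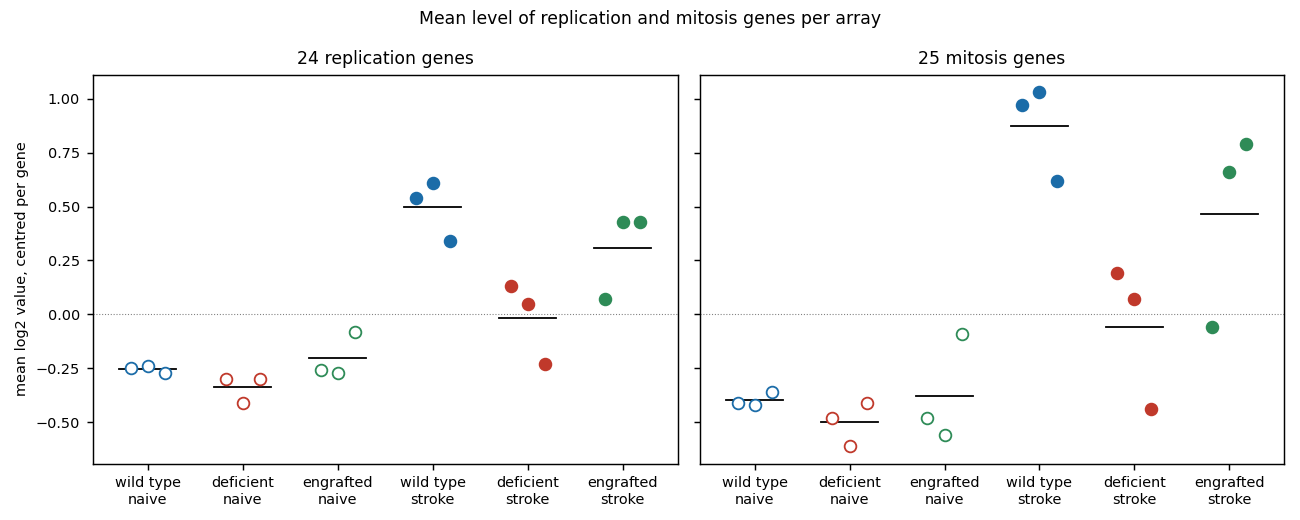
Mean centred log2 level of the 24 replication genes (left) and 25 mitosis genes (right) on each array (points), with the mean of each group of 3 (line); open points are naive and filled points stroke. Wild-type stroke arrays lie between 0.34 and 0.61 for replication and between 0.62 and 1.03 for mitosis, and deficient stroke array 3 lies at the naive level in both.

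The roles are described here by their medians, with no test between them, and their ranges overlap: the checkpoint genes spanned 0.33 to 2.18 and the kinases and cyclins 0.69 to 2.10 in wild type. In wild type the median stroke difference was 1.61 over the mitotic kinases and cyclins, 1.24 over the spindle and cytokinesis genes, 1.01 over the chromosome and kinetochore genes and 0.75 over the checkpoint genes. Among the replication genes it was 0.94 over nucleotide supply, 0.84 over fork and chromatin assembly, 0.82 over the helicase, 0.58 over licensing and firing and 0.43 over the S phase regulators. In deficient dura the medians ran from 0.20 over the S phase regulators to 0.56 over the kinases and cyclins. In engrafted dura they ran from 0.34 over licensing and firing to 0.85 over the kinases and cyclins, with the S phase regulators at 0.38, so the order of the roles was not the same in each category.

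Transcripts of marrow-type cells and leukocytes also varied between the arrays. The level of 11 granulocyte precursor genes, among them the granule protease genes Elane, Prtn3 and Ctsg and the peroxidase gene Mpo, was -0.11, 1.01 and -0.03 on the wild-type stroke arrays, -0.06, -0.22 and 0.12 on the deficient ones and 0.46, 1.13 and 1.71 on the engrafted ones. On naive arrays it was -0.12 to -0.29 in wild type, -0.74 to -0.87 in deficient, and -0.58, -0.48 and 0.12 in engrafted dura. Wild-type stroke arrays 1 and 3 had mitosis levels of 0.97 and 0.62 beside precursor levels of -0.11 and -0.03. Wild-type stroke array 2 was the highest of its group in both, at 1.03 and 1.01. Deficient stroke array 3 had the lowest mitosis level of its group (-0.44) beside its highest precursor level. Within the engrafted stroke group the order of the arrays was the same in both lists. What links the precursor and mitosis levels was not tested. After stroke 1 of the 11 precursor genes rose in wild type (median 0.47), 0 in deficient (median 0.75, 5 with an unadjusted p under 0.05, limma) and 3 in engrafted dura (median 1.49). Among all probe sets 6.24% rose in wild type, 0.125% in deficient, 0.878% in engrafted dura and 8.05% in the mean of the categories. In deficient dura 13.5% had an unadjusted p under 0.05 (limma), and 1.97% were lower in deficient than in wild-type stroke dura. Mpo read 7.84, 9.40 and 7.69 in wild-type and 8.54, 9.84 and 10.34 in engrafted stroke dura. The level of 9 erythroid genes was 0.79 on engrafted naive array 3 and 0.49 and 1.13 on engrafted stroke arrays 2 and 3, and between -0.51 and 0.10 on all other arrays. The level of 11 mature neutrophil genes was 0.31, 0.86 and 0.54 on the wild-type stroke arrays, -0.04, -0.22 and -0.25 on the deficient ones and 0.18, 0.56 and 1.07 on the engrafted ones, against -0.29 to 0.19, -0.95 to -0.64 and -0.57 to 0.22 on the naive arrays of these categories. Of these genes 5 rose in wild type, 1 in engrafted and 0 in deficient dura (4 with an unadjusted p under 0.05, limma), 9 rose in the mean of the categories, and 3 were lower in deficient than in wild-type stroke dura. Of 13 macrophage and monocyte genes 4 rose in wild type, 1 in engrafted and 0 in deficient dura (0 with an unadjusted p under 0.05, limma), 6 rose in the mean, and 3 were lower in deficient than in wild-type stroke dura. Their level lay between -0.28 and 0.33 on all 18 arrays. The part of neutrophils and macrophages in the results was not tested. With the precursor level as a covariate 18 replication and 22 mitosis genes rose in wild type, 0 and 0 in engrafted dura, and 5 and 13 were lower in deficient than in wild-type stroke dura. Since the precursor level was itself higher on average after stroke in each category, these fits cannot separate it from stroke.

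**Figure D5:**
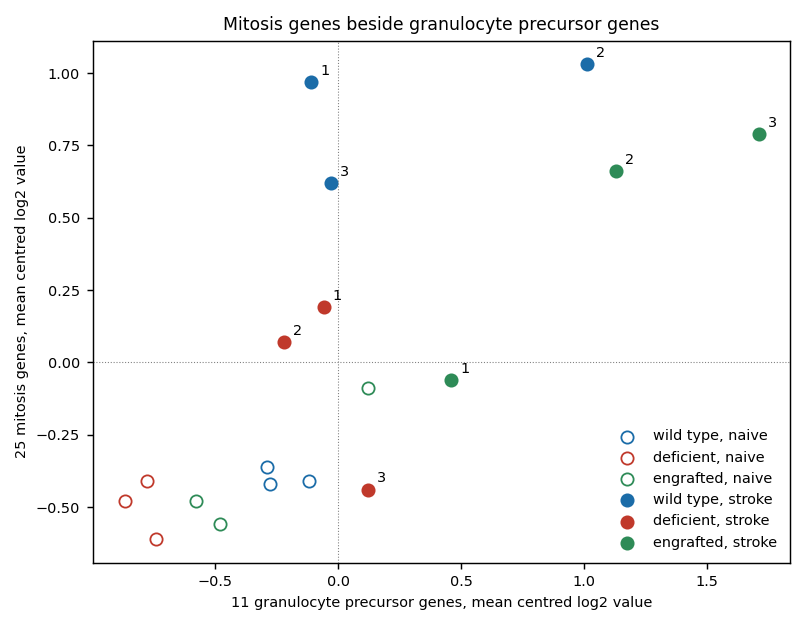
Mean centred log2 level of 25 mitosis genes (vertical) beside that of 11 granulocyte precursor genes (horizontal) on each of the 18 arrays; numbers mark the stroke replicates. Wild-type stroke arrays 1 and 3 are high in mitosis genes at precursor levels of -0.11 and -0.03. Wild-type stroke array 2 and engrafted stroke arrays 2 and 3 are high in both.

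Other cell cycle genes followed the 49 in direction with smaller differences. All of these lists were chosen with earlier results of these data known, so the difference in size is not read as a result. Of all probe sets 6.24% rose in wild type, 0.125% in deficient and 0.878% in engrafted dura. In deficient dura 13.5% had an unadjusted p under 0.05 (limma). Of 39 further replication genes 18 rose in wild type and 0 fell (median 0.32), against 0 in deficient (12 with an unadjusted p under 0.05, limma) and 7 in engrafted dura. The 4 with the smallest p were Dtl, an adaptor that marks the licensing factor Cdt1 for destruction (1.41 ± 0.17, adjusted p = 8.68e-05), Clspn, which codes for the fork protein claspin (0.76 ± 0.09, adjusted p = 0.000123), Ung, which removes uracil from DNA (0.57 ± 0.08, adjusted p = 0.000278) and Rfc2, a subunit of the loader of the Pcna clamp (0.42 ± 0.06, adjusted p = 0.000365). Of 58 further mitosis genes 49 rose in wild type and 0 fell (median 0.75), against 1 in deficient and 12 in engrafted dura. Those with the smallest p were Spc24 (0.71 ± 0.08, adjusted p = 2.87e-05), a kinetochore gene, Kif2c (1.35 ± 0.14, adjusted p = 2.97e-05), a kinesin that takes microtubules apart, and Cep55 and Melk (1.67 ± 0.18 and 0.78 ± 0.08, adjusted p = 3.09e-05 each). Cep55 acts in the last step of cell separation. Melk also passed in deficient dura (0.43 ± 0.08, adjusted p = 0.0497). Foxm1, a transcription factor of mitosis genes, read 7.02, 6.93 and 6.93 in naive and 8.11, 8.31 and 7.84 in stroke wild-type dura (1.13 ± 0.12). In deficient dura it read 7.02, 7.02 and 7.14 against 7.40, 7.37 and 7.17, and its interaction passed (-0.87 ± 0.17, adjusted p = 0.041).

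The remaining lists held G1 genes, checkpoint genes of S phase and G2, and inhibitors and quiescence genes. Of all probe sets 6.24% rose in wild type. Of 14 G1 cyclins and kinases 6 rose in wild type (median 0.30), led by Ccnd1, cyclin D1 (0.80 ± 0.12, adjusted p = 0.000478), E2f7 (0.46 ± 0.08), the growth regulator Myc (0.80 ± 0.14) and Cdk4 (0.37 ± 0.07). Myc read 9.06, 9.03 and 9.32 in naive and 9.93, 9.88 and 10.00 in stroke wild-type dura, and 9.33, 9.06 and 9.51 against 9.03, 9.09 and 8.83 in deficient dura. The groups separated in wild type and not in deficient dura, and the interaction passed (-1.11 ± 0.20, adjusted p = 0.0226). Neither this call nor that of Foxm1 was recomputed in the alternative fits. Of 18 checkpoint genes of S phase and G2, 5 rose (median 0.28), with Exo1, Fancd2, Chek1 and Topbp1 at 0.66 ± 0.11, 0.62 ± 0.11, 0.65 ± 0.14 and 0.45 ± 0.10. Of 23 inhibitors and quiescence genes 1 rose, Gadd45a (0.76 ± 0.16, adjusted p = 0.00612), and 1 fell, Btg2 (-0.46 ± 0.11, adjusted p = 0.0132), both known from growth arrest. The share that rose is below that of all probe sets, and neither gene is read as a result for the list. In the same list Lin52, a subunit of the complex that holds mitosis genes off at the CHR, gave -0.21 ± 0.08 (adjusted p = 0.0909). Ccng2 gave -0.39 ± 0.15 (adjusted p = 0.121). Neither passed, and both were picked from the list after their values were seen. The mean centred level of the whole list was -0.02, 0.11 and 0.06 on the wild-type naive arrays. On the wild-type stroke arrays it was 0.07, 0.07 and 0.10.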

How the data were processed

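RNA from the dura of 18 mice was hybridised to Affymetrix mouse arrays, 1 mouse each. The authors deposited log2 values, already normalized, for 34760 probe sets; the submitters' processing notes name RMA, affy and R 3.0.0 without giving their roles, and the deposited values show no depth. Of these, 21640 probe sets with exactly 1 gene symbol were tested, 1321 with several symbols and 11799 without a name in the annotation used were left out. One mean per group was fitted in limma 3.58.1 (R 4.3.3) over all 18 arrays (12 residual degrees of freedom), with 13 comparisons, Benjamini-Hochberg adjustment over 21640 probe sets and a threshold of 0.05. All 50 listed genes are named; of the other cell cycle lists, up to 4 genes by p in wild type and those passing an interaction are named, with Lin52 and Ccng2 added after their values were seen. The members and lists were chosen with earlier results of these data known. Replicate numbers were not treated as pairing the samples. Same-numbered arrays correlated in their deviations from group means with r from -0.609 to 0.603 (median -0.0564). For other-numbered arrays r ran from -0.564 to 0.603 (median 0.0142). These values cannot exclude a pairing, so a block by replicate number is among the alternatives below. The labels give separate mice, and the p-values rest on a spread between mice that is shared over all 6 groups. The groups differed in spread. The SD of the mitosis level was 0.03 in wild-type naive, 0.33 in deficient stroke and 0.46 in engrafted stroke dura. Alternatives were a replicate block, fits of the compared groups alone, no dim probe sets, further quantile normalization, trended and robust variance, array weights, the mean of a gene's probe sets, covariate scores, and leaving out arrays. Promoters were read from RefSeq (GRCm38.p6).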

Additional observations from a re-analysis of the deposited data

Results flagged for a closer look

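Among the 49 genes, those whose stroke response differed between mast cell-deficient and wild-type dura by the interaction test are listed here. Foxm1 and Myc, from the other lists, also passed this test and are given above, but their calls were not recomputed in the alternative fits. Chaf1b, the chromatin assembly gene, had a response smaller by 0.87 on the log2 scale in deficient dura, an interaction of -0.87 ± 0.16 (limma, adjusted p = 0.0327). Kif20a, the midzone kinesin gene, had an interaction of -1.20 ± 0.22 (limma, adjusted p = 0.0298). Neither call held in every fit that left out a single array. Both genes were higher on 3 of 3 stroke arrays than on any naive array in wild type. In deficient dura this held for Chaf1b and not for Kif20a.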

How the results depend on the processing

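Paired counts are of replication and mitosis genes that passed, in that order, and single counts are over both classes. With the replicate number as a block, 4 and 2 genes rose in engrafted dura, 0 passed in the interaction of deficient and wild type, 3 and 13 were lower in deficient than in wild-type stroke dura, and 0 passed for engrafted against wild-type stroke dura. With only the compared groups in the fit, 0 and 0 rose in deficient and 0 and 0 in engrafted dura, 1 and 6 were lower in deficient than in wild-type stroke dura, and 0 passed for engrafted against wild type. With array weights 10 and 7 genes rose in deficient and 11 and 11 in engrafted dura, 7 genes passed in the interaction, 17 and 22 were lower in deficient stroke dura, 3 passed for engrafted against wild type, and E2f1 turned to 0.02 for deficient against wild-type stroke dura. With the mean of a gene's probe sets Pcna turned to 0.07 in engrafted dura.

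Without the 5 arrays low in Ttr, 0 and 0 genes rose in deficient and 1 and 0 in engrafted dura, 0 passed in the interaction, 0 and 1 were lower in deficient stroke dura and 0 for engrafted against wild type. E2f1 turned to -0.10 in wild type and to 0.01 for deficient against wild-type stroke dura, and Ccne1 to -0.03 in deficient dura. With marker scores of choroid plexus and neurons as covariates, 13 and 19 genes rose in wild type and 14 and 17 in engrafted dura, 0 passed in the interaction, 4 and 10 were lower in deficient stroke dura and 0 for engrafted against wild type. E2f1 turned to -0.18 and Bub1b to -0.25 in wild type, Mcm4 to -0.03 in deficient dura, E2f1 to -0.02 in the mean of the categories, and E2f1 and Bub1b to 0.06 and 0.08 for deficient against wild-type stroke dura. With the granulocyte precursor score as a covariate, 0 and 0 genes rose in deficient and 0 and 0 in engrafted dura, 1 and 3 in the mean of the categories, 8 genes passed in the interaction of deficient and wild type and 2 in that of engrafted and wild type, and 5 and 13 were lower in deficient stroke dura. The score itself differed between naive and stroke dura, as given above. Cdc20, Ttk, Cenpe, Kif11, Tpx2 and Nusap1 turned to -0.03, -0.09, -0.08, -0.01, -0.07 and 0.00 in deficient dura, Tk1, Uhrf1, Cdc20, Mki67 and Ndc80 to -0.02, -0.07, 0.00, -0.11 and -0.04 in engrafted dura, and Pcna to 0.00 in the mean.

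Leaving out 1 array at a time gave 0 to 2 genes in the interaction of deficient and wild type, 0 to 0 and 0 to 0 in deficient dura, 0 to 14 and 0 to 21 genes in engrafted dura, 1 to 13 and 3 to 17 for deficient against wild-type stroke dura, 0 to 1 for engrafted against wild type and 0 to 2 for engrafted against deficient. Among single genes E2f1 ranged from -0.10 to 0.13 in wild type and -0.18 to 0.05 in engrafted dura, Mcm4 from -0.09 to 0.20 and Prc1 from -0.03 to 0.54 in deficient dura, and Pcna from -0.09 to 0.03 in engrafted dura. For deficient against wild-type stroke dura Pcna ranged from -0.23 to 0.00, E2f1 from -0.17 to 0.07 and Bub1b from -0.44 to 0.06. The mitosis minus replication difference in engrafted dura ranged from 0.23 to 0.47. The causes were not tested. Single genes kept direction and side of the threshold in 3932 of the recomputed values, lost the call in 434, gained it in 102 and reversed in 36. These values pool the comparisons and include genes that passed in neither fit. In wild type 11 of 20 and 19 of 24 calls held in every alternative. In engrafted dura 0 of 7 and 0 of 9 did, and for deficient against wild-type stroke dura 0 of 10 and 1 of 17. Dim probe sets limit Ttk and Bub1. The filter on dim probe sets, at a mean of 6.82 over all arrays, left out Ttk (6.08), Gins1 (6.53) and Ndc80 (6.67).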
